A study of Rattus norvegicus with 9 samples.

Results

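The phagocyte NADPH oxidase was followed in rat pancreatic islets through the genes of 6 subunits, Cyba, Cybb, Ncf1, Ncf4, Rac2 and Nox4, out of 14217 genes named on the array. They were taken by symbol: a probe set counted when the platform annotation gave exactly 1 gene symbol and it was a listed one, and the main probe set of a gene was the one with the highest mean signal over the 9 arrays. All 6 genes had such a probe set, and Cyba and Cybb had a second one, which made 8. The genes were chosen with the diet comparison of these arrays known, Cyba having been among the genes with the smallest p, so their diet differences are given as a description with no test.

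The islets came from adult male Wistar rats, an outbred strain, aged 7 weeks at the start and housed 1 to a cage. For 30 days they ate standard chow, with 8% of calories from fat (4 arrays, the lean group of the design text), or a cafeteria diet, a choice of palatable foods with 66% of calories from fat (5 arrays, the obese group). Each array held RNA of an independent islet sample, and the labels name no other treatment. A further standard-diet array named in the design text was not analysed here. Groups follow the sample titles, with which source names and descriptions coincide. In 9 of 9 samples the diet field of the labels contradicts the title. Were that field right, the groups would trade places and the signs below would flip.

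The phagocyte oxidase moves electrons from NADPH across a membrane to oxygen and so makes superoxide, which macrophages and neutrophils use against microbes. Its membrane core is a pair of proteins, the catalytic subunit encoded by Cybb and its stabilising partner encoded by Cyba. The core stays idle until a cytosolic complex, which includes the organiser encoded by Ncf1 and the phosphoinositide-binding subunit encoded by Ncf4, docks on it together with a Rac GTPase. Nox4 encodes another catalytic subunit, found in non-phagocytic cells such as endothelium and kidney epithelium, which pairs with the same Cyba product but works without the cytosolic subunits. Islets hold resident macrophages, and beta cells have been described to express oxidase subunits as well.

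The arrays gave 1 linear MAS5 signal per probe set, with array medians of 147.0 to 166.6 and correlations between pairs of arrays of 0.941 to 0.974 over the probe sets tested. The 9 islet endocrine markers were bright on all arrays, with summed signals of 215614 to 318566. The beta-actin 3'/5' signal ratio, a measure of RNA integrity, was 2.80 to 5.63 and highest on cafeteria replicate 3 and standard replicate 1. Standard replicate 3 stood apart in lymphocyte genes: its 9 lymphocyte markers summed to 3940, against 759 to 1107 on the other standard arrays and 591 to 775 on the cafeteria arrays. Over all genes, limma called 0 of 18625 probe sets at an adjusted p under 0.05, which is 0% (lowest adjusted p = 0.228), and 1080 (5.8%) had an unadjusted p under 0.05. Which cells of the islet preparation gave a signal cannot be told from bulk RNA, and fewer cells of a type and less RNA per cell cannot be told apart.

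By their main probe sets, both genes of the membrane core were lower in cafeteria islets, Cyba on every array and Cybb on most. The main Cyba probe set, 1370219_at, read 303.7, 313.9, 291.9 and 341.9 on standard replicates 1 to 4. On cafeteria replicates 1 to 5 it read 220.0, 150.1, 131.0, 224.0 and 201.5. The groups did not overlap, and cafeteria replicates 2 and 3 were the lowest. The mean was 312.9 ± 21.4 (SD, n = 4) in standard and 185.3 ± 42.3 (SD, n = 5) in cafeteria islets. The difference of cafeteria minus standard in log2(signal + 16) was -0.73 ± 0.18 (SE), a level 0.602 times that of standard islets. Its size changed little with the arrays used, from -0.80 without cafeteria replicate 1 or 4 to -0.63 without cafeteria replicate 3. The second Cyba probe set, 1378451_at, was dim, with signals of 2.75 to 72.9 in standard and 3.29 to 44.4 in cafeteria islets, and its groups overlapped.

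Cybb, the catalytic subunit whose loss causes X-linked chronic granulomatous disease, was read by its main probe set 1379344_at at 367.3, 331.8, 382.7 and 462.3 on standard replicates 1 to 4. The cafeteria arrays read 176.9, 210.7, 241.1, 356.6 and 317.1. On 4 of 5 cafeteria arrays the signal was below all standard arrays, and cafeteria replicate 4 lay inside the standard range. The means were 386.0 ± 55.1 (SD, n = 4) and 260.5 ± 74.7 (SD, n = 5), a log2 difference of -0.57 ± 0.20 (SE). The second Cybb probe set, 1369181_at, had 109.7 ± 24.0 (SD, n = 4) against 101.9 ± 25.8 (SD, n = 5), a log2 difference of -0.10 ± 0.24 (SE). Its groups overlapped, with 1 cafeteria array below and 1 above all standard arrays. The second probe set of Cybb therefore gave no clear order of the diets, and the mean of both probe sets gave -0.34. After each diet's mean was removed, the 2 Cybb probe sets correlated over the 9 arrays at r = 0.41 (exact permutation p = 0.327, rho = 0.38, exact permutation p = 0.385). The 2 Cyba probe sets correlated at r = 0.27 (exact permutation p = 0.478, rho = 0.30, exact permutation p = 0.409).

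**Figure D1:**
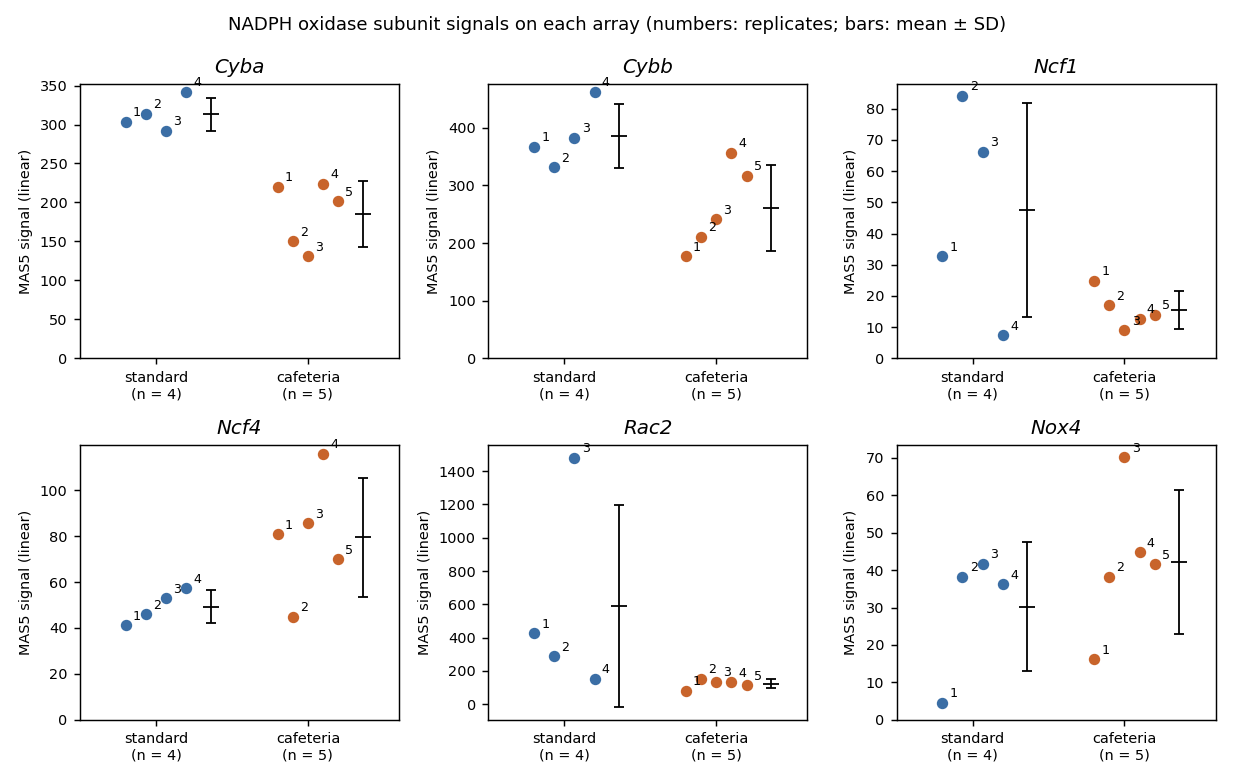
MAS5 signal (linear axis) of the main probe set of each subunit gene on every array, blue for 4 standard and orange for 5 cafeteria arrays, with replicate numbers beside the points and mean ± SD to the right. Cyba separates the groups (291.9 to 341.9 against 131.0 to 224.0), Rac2 does so by 152.9 against 152.7 with standard replicate 3 at 1482, and the other 4 overlap.

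The RefSeq promoter table (build GRCr8) held a window for Cyba, Cybb, Ncf1 and Nox4. The 250 bases before the annotated start are shown for the 3 of these whose main probe set was lower in cafeteria islets. They were searched on both strands for GAGGAA, the core of the box bound by PU.1, a factor of myeloid cells, and for an interferon-response type of box. Capitals mark the matches. The Cyba window is chr19:67404215-67404464 on the minus strand, the Cybb window chrX:16065066-16065315 on the minus strand and the Ncf1 window chr12:28121635-28121884 on the plus strand. Each is printed 5′ to 3′ in the direction of the gene.
Cyba: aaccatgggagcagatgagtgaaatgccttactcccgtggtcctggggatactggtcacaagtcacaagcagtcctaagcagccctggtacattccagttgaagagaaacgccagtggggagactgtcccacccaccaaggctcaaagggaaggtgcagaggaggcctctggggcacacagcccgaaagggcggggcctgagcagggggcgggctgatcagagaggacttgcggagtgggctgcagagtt
Cybb: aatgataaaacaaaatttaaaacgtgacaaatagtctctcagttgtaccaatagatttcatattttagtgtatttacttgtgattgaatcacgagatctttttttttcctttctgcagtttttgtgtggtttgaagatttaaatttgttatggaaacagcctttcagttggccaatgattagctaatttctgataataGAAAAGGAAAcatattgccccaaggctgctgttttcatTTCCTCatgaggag
Ncf1: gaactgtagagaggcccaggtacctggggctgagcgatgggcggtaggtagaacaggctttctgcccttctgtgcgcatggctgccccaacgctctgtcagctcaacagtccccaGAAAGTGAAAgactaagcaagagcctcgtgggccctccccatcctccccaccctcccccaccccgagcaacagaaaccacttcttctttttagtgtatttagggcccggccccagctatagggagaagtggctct

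The Cybb window held both boxes. GAGGAA lay on the opposite strand, printed as TTCCTC, from base 14 to base 9 before the start, and the interferon-type box, GAAAAGGAAA, lay at bases 52 to 43. The Ncf1 window held an interferon-type box, GAAAGTGAAA, at bases 135 to 126 and no GAGGAA. Neither box was in the Cyba or the Nox4 window. Of all 33469 windows of 250 bases in the table, 23.3% held GAGGAA and 3.41% held the interferon-type box, so the first is common by itself. The windows also differed in base composition, with 59.6% G and C before Cyba, 32.0% before Cybb, 58.4% before Ncf1 and 72.8% before Nox4. A match is a description of letters and says nothing about binding in these islets.

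The cytosolic subunits were dim and went in different directions. The Ncf1 probe set 1387413_at read 32.7, 84.2, 66.2 and 7.42 on standard replicates 1 to 4 and 24.9, 17.1, 8.98, 12.7 and 14.1 on cafeteria replicates 1 to 5. Standard replicates 1 to 3 were above all cafeteria arrays, and standard replicate 4 was below all of them. The means were 47.6 ± 34.3 (SD, n = 4) and 15.6 ± 5.99 (SD, n = 5), with a log2 difference of -0.83 ± 0.40 (SE). Without standard replicate 2 the difference was -0.55, and without standard replicate 4 it was -1.24.

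Ncf4 was the phagocyte subunit that was higher in cafeteria islets. Its probe set 1391737_at read 41.3, 46.0, 52.9 and 57.2 on the standard arrays and 80.8, 44.9, 85.7, 116.0 and 70.1 on the cafeteria arrays. On 4 of 5 cafeteria arrays the signal exceeded all standard arrays, and cafeteria replicate 2 lay within the standard range. The means were 49.4 ± 7.11 (SD, n = 4) and 79.5 ± 25.8 (SD, n = 5), a log2 difference of 0.51 ± 0.29 (SE). Ncf1, Ncf4 and Nox4 had means below the signal of about 91.1 that a probe set needed to enter the fit over all genes, so their standard errors come from a fit with no such limit. Cyba, Cybb and Rac2 entered it.

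Rac2, the Rac GTPase of blood cells, was lower in cafeteria islets, and much of its size came from 1 array. Its probe set 1372404_at read 426.7, 289.8, 1482 and 152.9 on standard replicates 1 to 4. On the cafeteria arrays it read 80.3, 152.7, 135.6, 133.0 and 114.7. The groups did not overlap, but standard replicate 4 and cafeteria replicate 2 were all but equal. The standard mean was 587.8 ± 606.4 (SD, n = 4), an SD above the mean itself, against 123.2 ± 27.5 (SD, n = 5). The log2 difference was -1.65 ± 0.47 (SE) over all arrays and -1.05 without standard replicate 3, the array with the high lymphocyte markers. Without standard replicates 1 and 3 and cafeteria replicate 3 together it was -0.77.

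**Figure D2:**
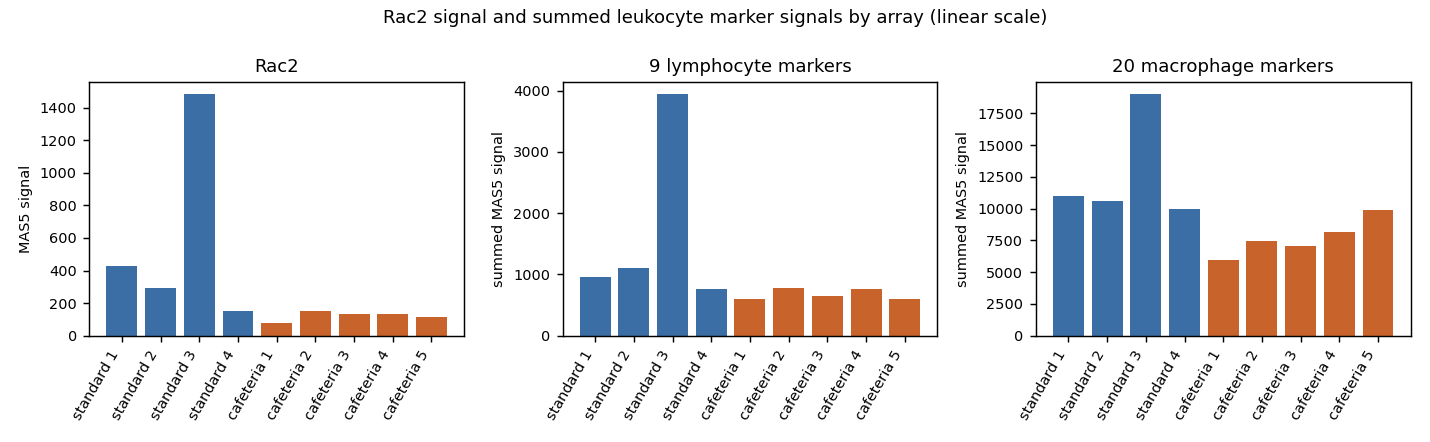
Rac2 signal (left), summed signal of 9 lymphocyte markers (middle) and of 20 macrophage markers (right) on each array, blue for standard and orange for cafeteria, on linear axes from 0. Standard replicate 3 is the highest in all 3 panels, at 1482, 3940 and 19002.

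Rac2 and the summed leukocyte markers were highest on the same array, standard replicate 3, and no relation of the subunits with these markers passed adjustment. The markers were averaged as log2(signal + 16), each diet's mean was removed, and arrays were permuted within diets, which gives 2880 arrangements. Rac2 against the 9 lymphocyte markers had r = 0.93 over the 9 arrays (exact permutation p = 0.0247, adjusted over 6 relations 0.0740) and rho = 0.80 (exact permutation p = 0.0208, adjusted 0.125). Against the 20 macrophage markers it had r = 0.81 (exact permutation p = 0.0125, adjusted 0.0740) and rho = 0.73 (exact permutation p = 0.0455, adjusted 0.137). Without the 2 arrays farthest from the median of the markers, the values of r were 0.75 (exact permutation p = 0.188) and 0.33 (exact permutation p = 0.507). Without standard replicate 3 alone they were 0.69 (exact permutation p = 0.165) and 0.56 (exact permutation p = 0.0806), so the relations rest in part on that array.

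Cyba had r = -0.16 with the lymphocyte markers (exact permutation p = 0.390, adjusted 0.585; rho = -0.15, exact permutation p = 0.583, adjusted 0.875). With the macrophage markers it had r = -0.17 (exact permutation p = 0.676, adjusted 0.812; rho = -0.13, exact permutation p = 0.776, adjusted 0.928). These values were 0.018 and 0.50 without the 2 arrays farthest from the median of the markers. Cybb had r = 0.42 with the macrophage markers (exact permutation p = 0.257, adjusted 0.513; rho = 0.55, exact permutation p = 0.136, adjusted 0.272), and 0.23 without 2 arrays. With the lymphocyte markers it had r = -0.020 (exact permutation p = 0.943, adjusted 0.943; rho = 0.033, exact permutation p = 0.928, adjusted 0.928), and 0.12 without 2 arrays. Whether the relations of Rac2 and Cyba differ from each other was not tested. The standard values of Cyba lay close together, from 291.9 on standard replicate 3, where leukocyte markers were highest, to 341.9. What leukocytes contributed to the Cyba signal was not tested.

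Most genes on the macrophage marker list had lower means in cafeteria islets, as the main probe sets of the membrane core did. The list is not particular to macrophages, as other leukocytes also use genes such as Ptprc, Cd53 and Cd74. The summed signal of the 20 markers was 9988 to 19002 in standard and 5980 to 9861 in cafeteria islets. The groups did not overlap in this sum, but they did without Cd74, the 1 marker of 20 whose own groups did not overlap. The other 19, a sum chosen after the values were seen, gave 6794 to 11654 and 4052 to 7218. Of all probe sets tested, 0.762% had every cafeteria array below every standard array, as Cd74 did. On standard replicate 3, 10 of the 20 markers were highest. Of 20 markers with a named probe set, 19 had a negative log2 difference, and 16 of them were tested with a median of -0.60, against -0.0090 for all probe sets tested. Limma called 0 of the 16 (lowest adjusted p = 0.839), as it called 0 of all 18625 probe sets. Of the 16, 9 had an unadjusted p under 0.05, where 5.8% of all probe sets did. These were Ptprc, Laptm5, Cd53, Cd74, RT1-Da, RT1-Db1, RT1-Ba, C1qc and Lyz2. All of them except C1qc were highest on standard replicate 3. Members differed: Cd74, the MHC class II invariant chain, had -0.95 ± 0.22 (SE) and Lyz2, a macrophage lysozyme, -0.60 ± 0.23, whereas the lysosomal marker Cd68 had -0.0039 ± 0.22 and C1qa -0.10 ± 0.17. The 9 lymphocyte markers were all lower on average, and 8 of 9 were highest on standard replicate 3. Among them Cd79b, too dim to be tested, had groups that did not overlap (25.7 to 274.2 in standard and 4.20 to 10.6 in cafeteria islets). Of 6 neutrophil markers named, 1 was tested, S100a9, with 0.37 ± 0.25 (SE, adjusted p = 0.859 by limma). Their summed signal was 240.6 to 456.1 in standard and 205.5 to 522.9 in cafeteria islets. The part of these cells in the subunit differences was not tested.

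Nox4 gave no clear order of the diets. Its probe set 1368543_at read 4.54, 38.2, 41.7 and 36.2 on standard replicates 1 to 4 and 16.2, 38.2, 70.1, 44.9 and 41.6 on the cafeteria arrays. Standard replicate 1 and cafeteria replicate 1 were low in their groups, and cafeteria replicate 3 was high. The log2 difference was 0.38 ± 0.38 (SE). With standard replicate 1 left out it came to 0.022, with cafeteria replicate 3 left out to 0.22 and with cafeteria replicate 1 left out to 0.57. It turned to -0.097 without standard replicates 1 and 3 and cafeteria replicate 3 together. The endothelial markers, of a cell type known for Nox4, had summed signals of 7172 to 8389 in standard and 6691 to 7578 in cafeteria islets. Of 6 tested, 5 had a negative log2 difference and 1 a positive one. Their median was -0.32, against -0.0090 for all probe sets tested, and limma called 0 of them, as of all probe sets tested.

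Across the 6 genes, 4 had a negative log2 difference and 2 a positive one, and the median was -0.65. Of all 31042 probe sets, 52% had a negative difference. For 2 of 6 main probe sets, Cyba and Rac2, every cafeteria array was below every standard array, which held for 0.854% of all probe sets and for 0.762% of those tested. As the genes were chosen with this comparison known, these shares are set side by side only. The direction of Cyba, Cybb, Ncf1, Ncf4 and Rac2 was the same in all alternatives run, and among these 5 genes the sizes for Ncf1 and Rac2 had the widest ranges.

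**Figure D3:**
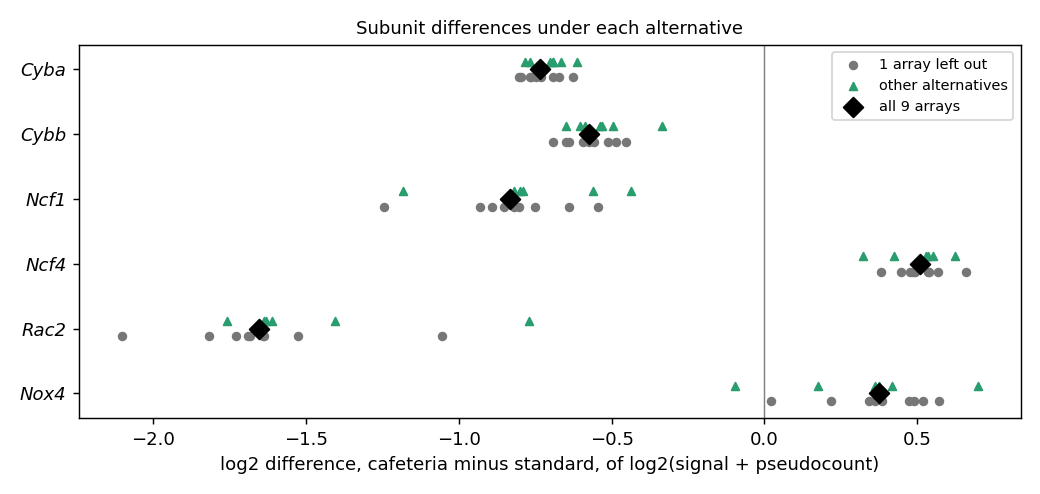
Log2 difference of cafeteria minus standard for each subunit gene with all 9 arrays (black diamonds), with 1 array left out (grey points) and under the other alternatives (green triangles, such as other pseudocounts or normalisations). Cyba stays between -0.80 and -0.61, Rac2 spans -2.10 to -0.77, and Nox4 crosses 0.

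The next question was whether Cyba rises and falls with the other subunits from array to array. Over the 9 arrays with the diet difference left in, r with Cyba was 0.72 for Cybb, 0.50 for Ncf1, 0.48 for Rac2, -0.39 for Ncf4 and -0.46 for Nox4. These values contain the diet differences that chose the genes and are given without a test (rho 0.77, 0.27, 0.57, -0.37 and -0.53). With each diet's mean removed, Cyba and Cybb, whose products form 1 complex, had r = 0.31 (exact permutation p = 0.509, adjusted over 5 relations 0.636) and rho = 0.38 (exact permutation p = 0.413, adjusted 0.572). Cafeteria replicate 1, with the second highest Cyba and the lowest Cybb of its group, lay apart. Without this array r was 0.84 (adjusted p = 0.191 by exact permutation), and without cafeteria replicate 4 it was 0.023.

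Cyba with Ncf4 had r = 0.46 (exact permutation p = 0.437, adjusted 0.636; rho = 0.33, exact permutation p = 0.458, adjusted 0.572). Their diet differences had opposite signs, while this estimate within diets was positive. Without cafeteria replicate 3 this r was 0.86 (adjusted p = 0.117 by exact permutation), and without cafeteria replicates 2 or 4 it was 0.22 and 0.21. With Rac2 it was r = -0.37 (exact permutation p = 0.0361, adjusted 0.181; rho = -0.60, exact permutation p = 0.0576, adjusted 0.288). This estimate was negative within diets, while both genes were lower in cafeteria islets. With Nox4, r was -0.36 (exact permutation p = 0.327, adjusted 0.636; rho = -0.37, exact permutation p = 0.371, adjusted 0.572). Leaving out standard replicate 1 gave -0.64, and leaving out cafeteria replicate 3 gave -0.065. With Ncf1, r was -0.018 (exact permutation p = 0.935, adjusted 0.935; rho = 0.050, exact permutation p = 0.892, adjusted 0.892). Without cafeteria replicate 3 and standard replicate 4, the arrays farthest from the median of Cyba, the values were 0.29 for Cybb, 0.045 for Ncf1, 0.85 for Ncf4, -0.36 for Rac2 and -0.15 for Nox4 over 7 arrays. No relation of Cyba with another subunit passed adjustment, and 9 arrays leave wide room for relations in either direction.

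**Figure D4:**
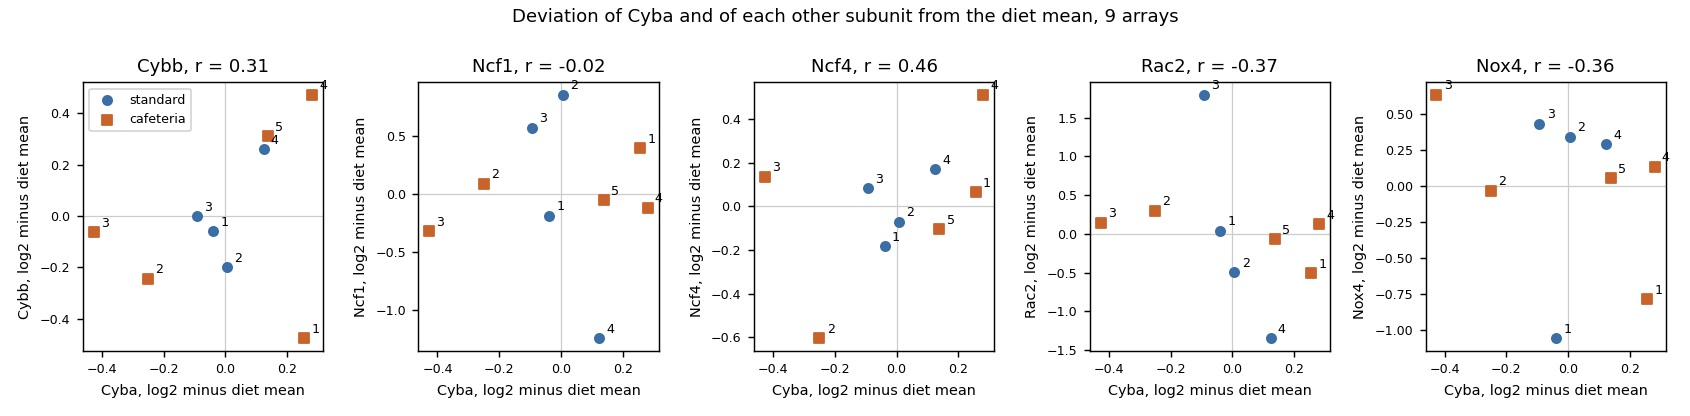
Deviation from the diet mean in log2(signal + 16) of Cyba (horizontal axis) and of Cybb, Ncf1, Ncf4, Rac2 and Nox4 (vertical axes) on the 9 arrays, with blue circles for standard, orange squares for cafeteria and replicate numbers beside the points. In the Cybb panel (r = 0.31) cafeteria replicate 1 lies apart at the lower right, and in the Rac2 panel (r = -0.37) standard replicate 3 lies at the top.

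The genes whose within-diet pattern was most like that of Cyba were not oxidase genes. Among 10346 other genes with a tested probe set, the 8 with the highest Pearson r over 9 arrays were Ephb6 (0.93), Snrk (0.92), Bspry (0.91), Lage3 (0.89), Tsg101 (0.88), Slc6a9 (0.88), Josd2 (0.88) and Ormdl3 (0.87). Cybb stood at place 2522 in that order and Rac2 at 8279. The 5 most like Cybb were Hace1 (0.94), Ppargc1a (0.92), Fgg (0.91), Clec7a (0.90) and Mindy1 (0.90). Clec7a encodes dectin-1, a phagocyte receptor for fungal glucans that triggers the oxidase. Cyba stood at place 2070 in the order for Cybb. Values this high are found easily among so many genes with 9 arrays, and they are given as a description.

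Genes around the oxidase showed no diet difference past the test, and neither did any other probe set. Of 51 listed genes in 6 roles, 40 had a named probe set and 31 were tested. Limma called 0 of 31 (lowest adjusted p = 0.839), as it called 0 of all 18625 probe sets (0%). The 0 calls here and in each role below are therefore no particular trait of these genes. Of the 31, 1 had an unadjusted p under 0.05 against 5.8% of all probe sets. No gene had groups that did not overlap, in either direction. Of all probe sets tested, 0.762% had every cafeteria array below every standard array, a share so small that 31 genes need hold none. The share with every cafeteria array above every standard array was not counted. Of the 31, 19 had a negative and 12 a positive log2 difference, and the median was -0.0093, against -0.0090 over all probe sets tested. The list holds genes used by many cell types, so a phagocyte share of their signal was not tested.

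Among other catalytic subunits and partners, 2 of 5 named genes were tested and 0 were called. Cybc1, a chaperone needed for the Cybb and Cyba proteins, had a signal of 850.0 ± 109.1 (SD, n = 4) against 1019 ± 132 (SD, n = 5), a log2 difference of 0.26 ± 0.13 (SE, adjusted p = 0.839 by limma). Its point estimate was therefore above 0 where those of Cyba and Cybb were below. Duox2, an oxidase of epithelia, had -0.51 ± 0.45 (SE), which rested on standard replicate 1 at 520 and was 0.064 without it. Nox1, Duoxa1 and Noxo1 were too dim to be tested.

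Of the GTPases and their regulators, 6 of 8 named genes were tested and 0 were called, with a median of 0.050. Arhgdib, a GDP-dissociation inhibitor found in blood cells, had -0.41 ± 0.19 (SE, adjusted p = 0.839 by limma). Its signal was 1488 on standard replicate 3, and without that array the difference was -0.19. Tiam1, an exchange factor that activates Rac, had 0.58 ± 0.27 (SE, adjusted p = 0.839), and was 500.4 ± 214.2 (SD, n = 4) against 724.6 ± 200.3 (SD, n = 5). Rac1, the widely expressed relative of Rac2, had 4711 ± 188 (SD, n = 4) against 5022 ± 188 (SD, n = 5), a difference of 0.092 ± 0.082 (SE). The difference between Rac1 and Rac2 in response was not tested.

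Kinases and the phospholipase that prime the complex gave 6 tested genes, 0 called, with differences of -0.040 to 0.33. Prkca, a protein kinase C, had 0.33 ± 0.24 (SE), Pak2 0.095 ± 0.13 and Pak1 -0.040 ± 0.15. Of the receptors that trigger the burst, 5 of 9 named genes were tested and 0 were called. Itgb2, the common chain of leukocyte integrins, had -0.61 ± 0.29 (SE, adjusted p = 0.839 by limma), with 181.3 ± 78.6 (SD, n = 4) against 108.5 ± 32.9 (SD, n = 5), and -0.41 without standard replicate 3. The complement receptor gene C5ar1 had -0.17 ± 0.33 and the Fc receptor gene Fcgr1a 0.099 ± 0.29.

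All 5 transcription factors tested had a negative difference, as 52% of all probe sets did. Their median was -0.24, and 0 were called (lowest adjusted p = 0.859 by limma). The factors were Cebpb (-0.33 ± 0.21, SE), Cebpa (-0.30 ± 0.28), Irf1 (-0.24 ± 0.14), Irf8 (-0.15 ± 0.35) and Runx1 (-0.068 ± 0.28). The last pair was named after its values were seen. Spi1, the gene of PU.1, was not analysed here. Enzymes that remove superoxide and peroxide differed little between the diets: log2 differences lay between -0.074 and 0.12 for 7 genes, and 0 were called. Catalase (Cat) had 0.12 ± 0.15 (SE), Gpx1 -0.074 ± 0.14 and Gpx3 0.087 ± 0.25.

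**Figure D5:**
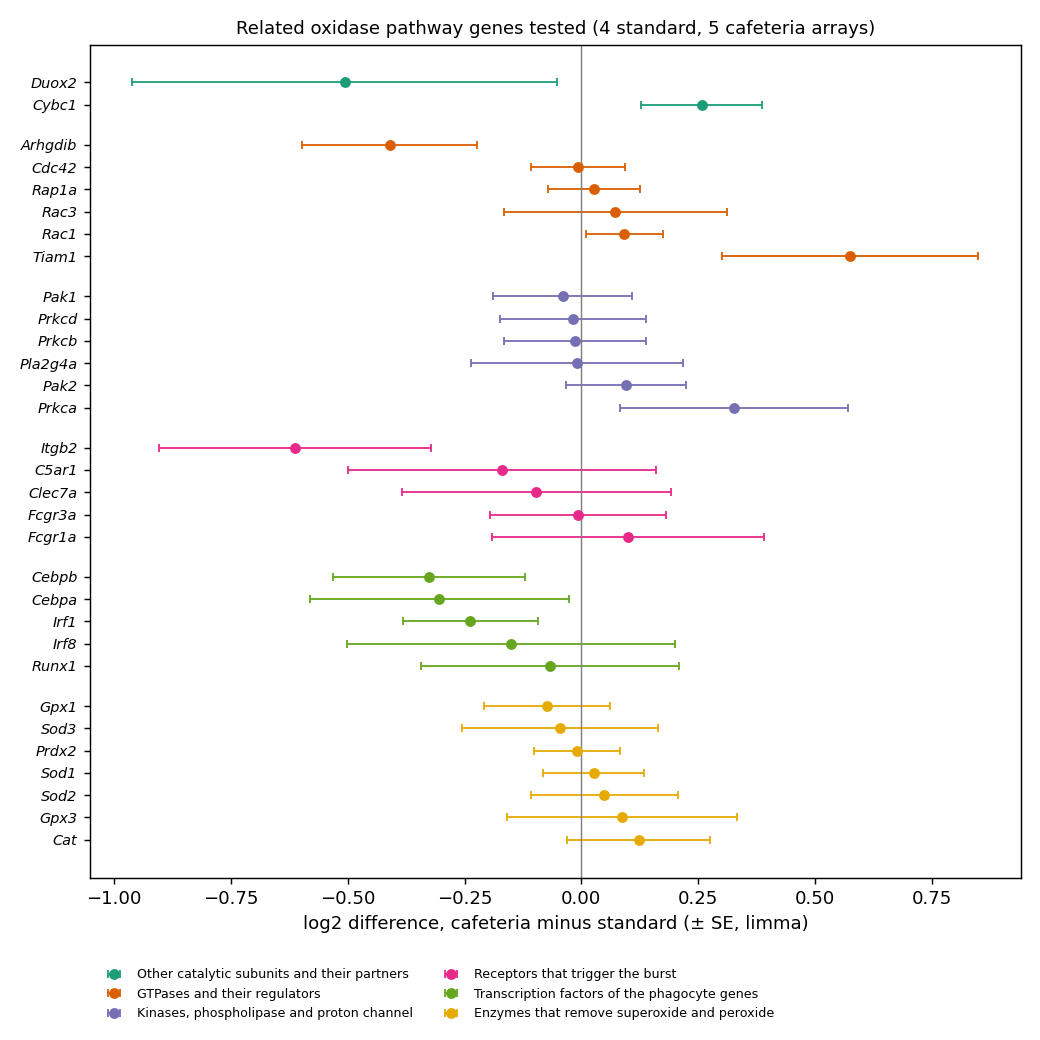
Log2 difference of cafeteria minus standard with its standard error for the 31 tested genes around the oxidase, grouped and coloured by role. Arhgdib, Itgb2 and Duox2 lie lowest (-0.41, -0.61 and -0.51), Tiam1 highest (0.58), and the enzymes that remove superoxide and peroxide lie between -0.074 and 0.12.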

How the data were processed

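RNA of 4 islet samples from rats on chow and 5 from rats on the cafeteria diet was read on Affymetrix Rat Genome 230 2.0 arrays. The authors deposited linear intensity signals, 1 per probe set, and the submitters' processing notes name MAS5. As each array's trimmed mean (2% cut from each end) is 500, no further scaling was applied. Detection calls were not used here. Precision is limited by the number of arrays.

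After 57 control probe sets were left out, 31042 remained, of which 20826 have 1 symbol (20758 matched a current gene by identifier), 436 several and 9780 none. The scale of analysis was log2(signal + 16), on which folds of dim genes come out too small. Limma 3.58.1, run in R 4.3.3, fitted diet alone with a variance trend. Its p-values were adjusted by Benjamini and Hochberg's method across 18625 probe sets, those at or above the 40th percentile of mean log2 signal. Within-diet correlations used exact permutation, two-sided (Python 3.11.15). The fit was tested on simulated data. Limma's p-values compare a difference with the spread between these samples, moderated over all tested probe sets. Permutation p-values come from reordering the arrays within diets.

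The members and gene lists were chosen with earlier results of these data known. Genes named are the 6 subunits, up to 3 tested genes per role with the smallest unadjusted p, and the 8 and 5 genes nearest to Cyba and Cybb. Alternatives were pseudocounts of 1 and 64, 2 other normalisations (quantile, equal medians), a filter at the 60th percentile or none, each array left out, the replicate number as a block, and the mean of all probe sets. Leaving out 3 doubted arrays together was added after the data were seen.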

Additional observations from a re-analysis of the deposited data

Results flagged for a closer look

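In 50 groups of 4 or 5 arrays examined for the genes named, 4 held an array far from the others by Dixon's test, where chance gives about 5%. The second Cyba probe set read 44.4 on cafeteria replicate 4, and the next highest of its group was 9.81. Nox4 read 4.54 on standard replicate 1, below the next lowest value of 36.2. Arhgdib read 574.9 on cafeteria replicate 1, below 711.2, and Pak2 read 2386 on standard replicate 2, below 3059.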

How the results depend on the processing

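The subunit differences moved by less than 1 SD between arrays in all alternatives, which is a wide limit. Within it, Rac2 went from -1.65 to -0.77 and Nox4 from 0.38 to -0.097 without the 3 doubted arrays. With each array left out in turn, Cyba lay between -0.80 and -0.63, Cybb between -0.69 and -0.45, Ncf4 between 0.38 and 0.66, Ncf1 between -1.24 and -0.55, Rac2 between -2.10 and -1.05 and Nox4 between 0.022 and 0.57. Without the 3 doubted arrays Cyba had -0.69 and Cybb -0.59. For the dim genes the pseudocount mattered: Ncf1 had -1.18 with 1 and -0.44 with 64, and Nox4 0.70 and 0.18. Probe sets called over all genes numbered 0 to 2 with each array left out, 2 of them without standard replicate 2, and 0 in the other alternatives. With equal array medians, 812 of the probe sets with an unadjusted p under 0.05 were higher and 322 lower, in place of 560 and 520. None of the listed genes around the oxidase was called in any of 17 alternatives.

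The within-diet correlation of Cyba with Ncf1, near 0, turned to 0.016 with a pseudocount of 1, 0.027 with equal array medians and 0.045 without the 2 arrays farthest from the median of Cyba. It moved most, to -0.62 (adjusted p = 0.537 by exact permutation), with the mean of all probe sets of each gene. That setting brought in the dim second Cyba probe set, as Ncf1 had no second one. With each array left out, the correlation ran from -0.25 to 0.31. Small differences also turned sign with 1 array left out: Duox2 ran from -0.92 to 0.064, Pak2 from -0.00049 to 0.14, Gpx1 from -0.16 to 0.032, Gpx3 from -0.13 to 0.37, Fcgr1a from -0.13 to 0.27 and Pak1 from -0.094 to 0.041. Pak1 had 0.00033 with equal array medians. Cebpa ran from -0.47 to -0.14, but without the 3 doubted arrays Cebpa had 0.15, Gpx1 0.089 and Pak1 0.058. The causes were not tested.

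The labels give both diets replicate numbers 1 to 4 without saying that they pair samples. Same-numbered arrays had deviations that correlated at -0.38 to 0.030, so the numbers were not taken as pairs. With the replicate block Cyba had -0.77, Cybb -0.65, Ncf1 -0.82, Ncf4 0.54, Rac2 -1.64 and Nox4 0.36. The block gave 0 calls, and 582 in place of 1080 probe sets had an unadjusted p under 0.05.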
